A study of Capra hircus with 2 samples.

Results

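Small RNA libraries of the goat mammary gland held, beside microRNAs (miRNAs), many reads longer than a miRNA. The class described here is every tag, that is every distinct read sequence, of 24 to 44 nt that did not end in CCA, the letters that close a mature tRNA, and did not share its first 18 nt with any of the 346 conserved miRNA sequences listed with the study. It held 566642 of the 1692810 tags in both libraries together, of which 202871 were read in the dry period (D) library and 420253 in the peak lactation (P) library, with 56482 in both. These long small RNAs took 1208032 of 14851375 clean reads of D and 4503537 of 15712891 clean reads of P.

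Mammary glands came from goats of the Xinong Saanen dairy breed, aged 2.5 years, with no stated treatment or allele. Material of 3 goats was pooled per stage, as tissue by the labels and as RNA in another place of the study's text, so each stage is 1 library with no replicate. The labels place the dry period at 75 days after lambing and peak lactation at 320 days, and the study's text gives the same days the other way round, so the stages are named here by their state only. RNA under 30 nt was cut from a gel, ligated to adaptors and sequenced on the Solexa platform, and clean reads start at 18 nt. No difference between the stages could be tested, and all intervals given are 95% Wilson intervals that cover counting error only and leave out the spread among goats and among preparations. In whole tissue, a change in the number of cells of a type and a change in RNA per cell cannot be told apart.

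miRNAs are cut by Dicer from hairpin precursors and mostly begin with uracil, read as T. Reads longer than these come from other sources in mammals. PIWI-interacting RNAs, known mainly from the germ line, tend to begin with uracil or to carry adenine as the tenth base, while fragments of ribosomal RNA (rRNA), transfer RNA (tRNA) and Y RNA take the base composition and the ends of their parent molecules. rRNA is the bulk of the RNA of a cell, and its 18S, 5.8S and 28S parts are cut from a single precursor.

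The sequences that led the class are shown first because they show what its most read tags were. Tags were joined into families by an 18-nt stretch shared with the tag of highest mean reads per 1000000 clean reads (RPM), and the leading tags of 9 of the first 10 families follow, with capitals on the 18 nt that the most family reads held. The names are those of mammalian rRNA sequences from general knowledge. No reference sequence was aligned, so each assignment was not tested.
family 1, 3′ end of 18S rRNA: taggtgaaCCTGCGGAAGGATCATTA
family 3, 28S rRNA: aaccATTCGTAGACGACCTGCTtc
family 4, 18S rRNA: gcagtTAAAAAGCTCGTAGTTGGatc
family 5, 3′ end of 5.8S rRNA: ggGGCTACGCCTGTCTGAGCgtcgct
family 6, 5′ end of 28S rRNA: CGCGACCTCAGATCAGACgtggcg
family 7, 5′ end of 5.8S rRNA: GACTCTTAGCGGTGGATCactcgg
family 8, 28S rRNA: gcCGACTTAGAACTGGTGCGgacc
family 9, not assigned: tcgGGGAGAACCGCAGGAACGccga
family 10, 18S rRNA: aggtCTGTGATGCCCTTAGATGtccgg

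The first 10 families held 23.4% of the long small RNA reads in the D library and 25.6% in the P library, and the first 20 held 41.1% and 44.1%. Family 12, a GC-rich part of 28S rRNA, held 3.15% and 4.59% of the long reads, and family 14, also of 28S rRNA, 5.01% and 4.27%. Tags of a family overlap and share their source, so they are not independent of each other.

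Overlapping tags could be joined into longer stretches around the leading tags. The 12 stretches built in this way were 32 to 213 nt long and held 30.2% of the reads of the class in the D library and 34.8% in the P library. The longest, 213 nt around family 8 of 28S rRNA, was covered by 707 tags with 34309 and 153490 reads. The leading tags thus overlapped along stretches longer than any of them, and over the 12 stretches the log2 ratio between the stages ran from 1.58 to 5.83.

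The long small RNAs made up 8.13% of clean reads in the D library (interval 8.12 to 8.15) and 28.7% in the P library (28.6 to 28.7). The share was thus 3.52 times as large in the P library, a log2 ratio of 1.82 (1.81 to 1.82). Conserved miRNAs differed the other way, from 61.1% to 14.4% of clean reads, and the other tags of 18 to 23 nt went from 30.3% to 54.5%. Since shares of a library sum to its whole, the log2 ratio was also computed per clean read outside the conserved miRNAs, where it was 0.68. Log2 ratios given without another scale or way of counting are per clean read and would be 1.14 lower on that scale.

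Reads per tag differed too. A long tag had 5.95 reads on average in the D library and 10.7 in the P library. Tags read once were 81.3% of the long tags of the dry period and held 13.7% of its long reads, against 76.3% of tags and 7.12% of reads in the P library. Tags found in both libraries were 27.8% and 13.4% of the long tags and held 87.0% and 87.9% of the long reads. Over all tags, 204619 were found in both libraries, of 788915 in the D library and 1108514 in the P library. Tags read once were 79.5% and 75.6% of all tags, close to their share of the long tags.

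Length fell off steeply from the lower bound of the class. In the dry period 36.5% of the long reads were 24 nt, 28.8% were 25 nt, 20.9% were 26 nt, 10.6% were 27 nt and 2.46% were 28 nt. At peak lactation the fall was slower, with 24.8% at 24 nt, 23.4% at 25 nt, 22.1% at 26 nt, 16.8% at 27 nt and 8.59% at 28 nt. Neither library had a separate peak between 25 and 36 nt, where PIWI-interacting RNAs and large tRNA fragments would lie. As RNA under 30 nt was cut from the gel, a peak above that length could hardly have been seen. Of the class, 34.7% in the D library and 51.8% in the P library was 26 to 44 nt long. Just below the bound, other tags of 23 nt had 662629 and 1339696 reads, a log2 ratio of 0.93, against 441208 and 1118102 reads and 1.26 for the long small RNAs of 24 nt.

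**Figure D1:**
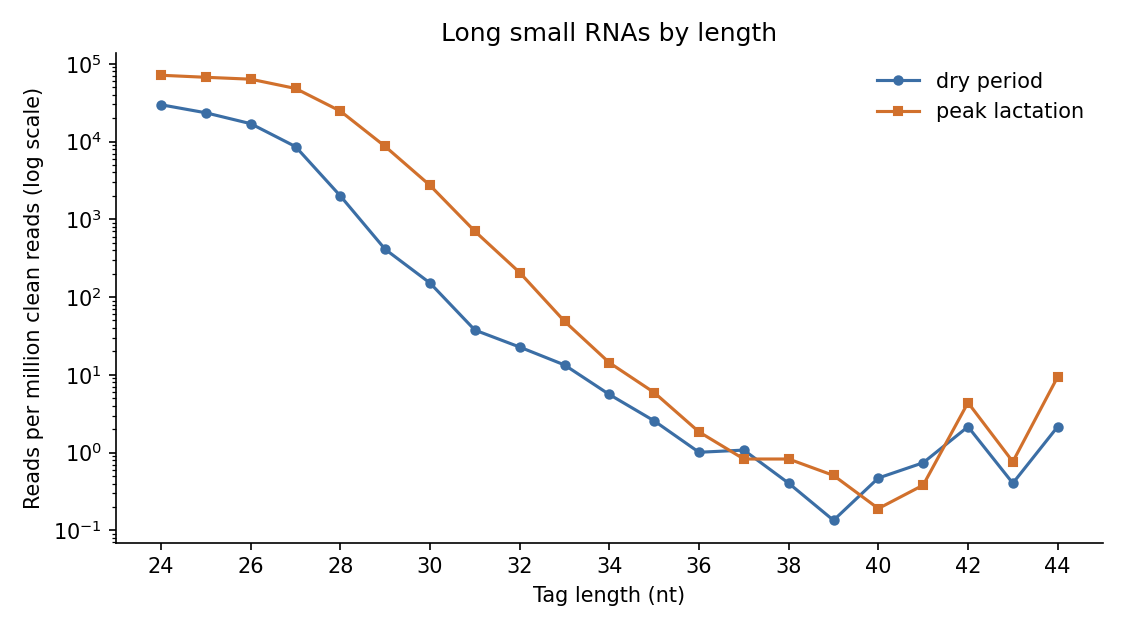
Reads of the long small RNAs per 1000000 clean reads (log scale) against tag length in nt, with 1 point per length for the dry period library (circles) and the peak lactation library (squares). Both curves are highest at 24 nt and fall, the dry period curve more steeply up to 29 nt, with small humps at 42 and 44 nt that rest on 32 to 148 reads.

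The difference between the stages grew with length up to 29 nt and was smaller again past 31 nt. The log2 ratio was 1.26 at 24 nt, 1.52 at 25 nt, 1.90 at 26 nt, 2.48 at 27 nt, 3.62 at 28 nt and 4.39 at 29 nt. Beyond that it was 4.17 at 30 nt, 4.22 at 31 nt, 3.18 at 32 nt, 1.87 at 33 nt, 1.36 at 34 nt and 1.21 at 35 nt, and 1.16 for reads of 36 to 44 nt (0.86 to 1.46). At 29 to 31 nt 8916 long reads stood in D and 189679 in P, a ratio of 20.1.

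From 24 nt to 28 nt, growth with length stood also in the read classes left out of the long small RNAs. Tail-bearing tags went from a log2 ratio of 1.49 at 24 nt to 4.53 at 29 nt, and were at 2.71 at 31 nt. Conserved miRNA reads, lower in the P library as a whole, had a log2 ratio of -1.33 at 18 nt, -2.28 at 22 nt, -1.40 at 24 nt, -0.70 at 26 nt and 0.61 at 28 nt (0.41 to 0.82). Of the conserved miRNA reads, 2.75% in the D library and 4.57% in the P library were 24 nt or longer. Among the other tags of 18 to 23 nt the ratio lay between 0.56 and 0.95 at every length. Between 24 and 28 nt the ratio thus grew with each base in the 3 classes with reads past 23 nt, and with 1 library per stage a difference in the gel cut and a difference between the stages cannot be told apart.

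**Figure D2:**
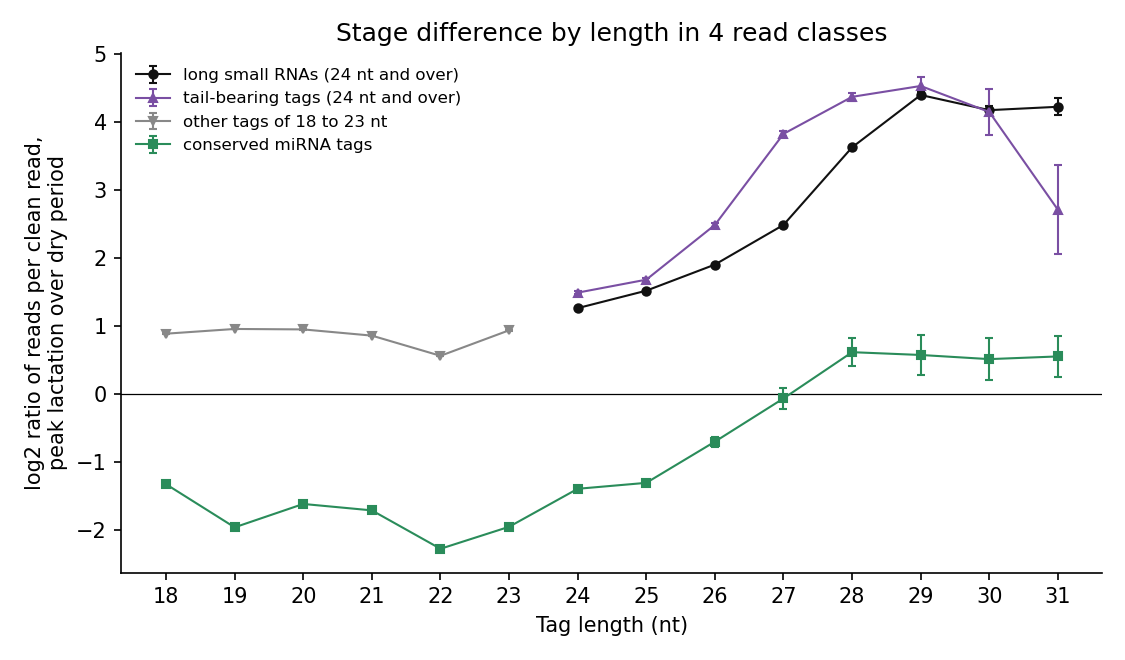
log2 ratio of reads per clean read, peak lactation over dry period, against tag length in nt for 4 read classes, with lengths of at least 100 reads over both libraries shown and bars for the 95% counting interval. The long small RNAs go from 1.26 at 24 nt to 4.39 at 29 nt, tail-bearing tags from 1.49 to 4.53, and conserved miRNA tags from -1.40 to 0.57 over the same lengths.

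Growth with length was also present within single families, whose tags share an 18-nt stretch. Over the 20 families together, reads of 18 to 23 nt that held an 18-nt stretch of a leading tag had a log2 ratio of 1.26, those of 24 to 25 nt 1.48, those of 26 to 28 nt 2.29 and those of 29 to 31 nt 4.42. By family, the median was 1.29 at 18 to 23 nt (range 0.19 to 1.87) and 2.40 at 26 to 28 nt (range 1.68 to 5.57). All 20 families had a higher log2 ratio at 28 nt than at 24 nt. From 24 to 25 nt it was higher in 18 of 20 families, from 25 to 26 nt in 20 of 20, from 26 to 27 nt in 17, from 27 to 28 nt in 18 and from 28 to 29 nt in 18.

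**Figure D3:**
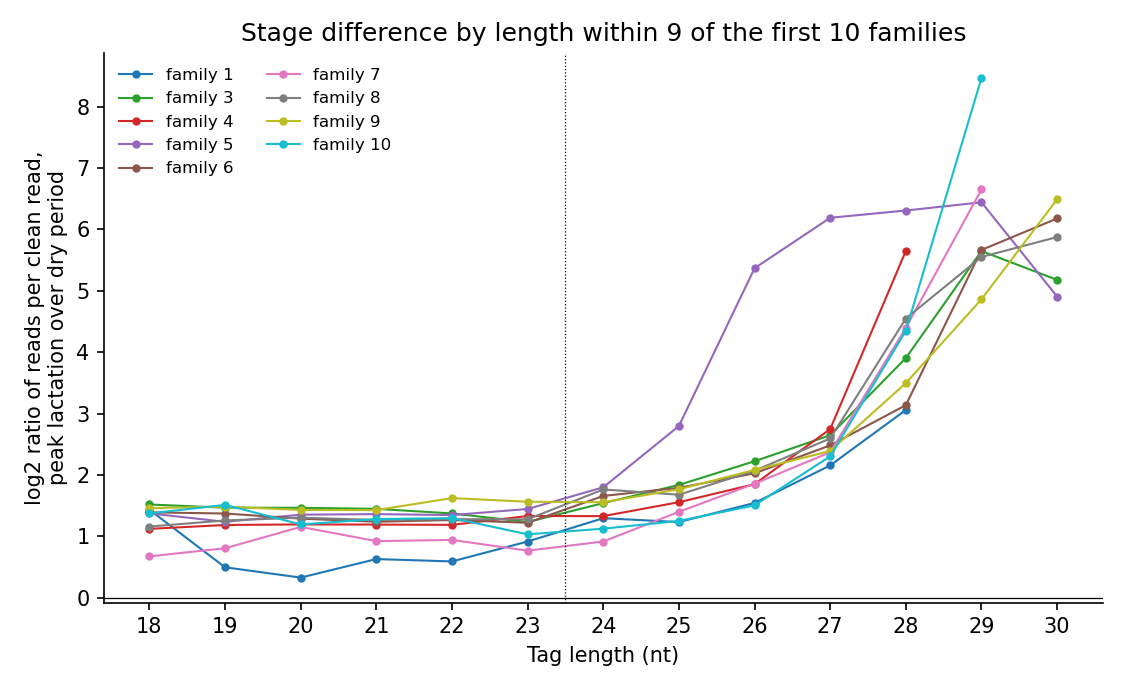
log2 ratio of reads per clean read, peak lactation over dry period, against tag length in nt for 9 of the first 10 families, with 1 line per family and points where both libraries together had at least 100 reads and the dry period had at least 1. To the left of the dotted line, which marks the lower bound of the class, the points lie between 0.33 and 1.62, and to the right every line is higher at 28 nt than at 24 nt, family 5 most of all.

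A ladder of tags shows this base by base. Family 6 begins at the 5′ end of 28S rRNA, and 93.7% of its D library reads and 94.4% of its P library reads started at the very base at which the leading tag starts. The tags below share that start, and the capitals are the bases past 24 nt.
24 nt: cgcgacctcagatcagacgtggcg
25 nt: cgcgacctcagatcagacgtggcgA
26 nt: cgcgacctcagatcagacgtggcgAC
27 nt: cgcgacctcagatcagacgtggcgACC
28 nt: cgcgacctcagatcagacgtggcgACCC
29 nt: cgcgacctcagatcagacgtggcgACCCG
30 nt: cgcgacctcagatcagacgtggcgACCCGC

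The 24-nt tag of this ladder had 4486 reads in the D library and 15121 in the P library, a log2 ratio of 1.67 (1.62 to 1.72). With 1 base more the reads were 3381 and 12273, and with 2 more 1278 and 5501. The 28-nt tag had 143 and 1257 reads, a log2 ratio of 3.05. One base on, the 29-nt tag had 91 and 5016 reads, a log2 ratio of 5.70 (5.40 to 6.002), so that in the P library it was read more often than the tags of 27 and 28 nt, which had 2435 and 1257 reads. The D library showed no such second maximum. Below 24 nt the same start was the most read of all family sequences, with 112868 and 309759 reads for the 19-nt tag cgcgacctcagatcagacg, a log2 ratio of 1.38.

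Family 1 ends where 18S rRNA ends and is the mirror image of family 6. In both libraries 99.1% of its reads stopped at the same 3′ base, while the start varied over a few bases. Capitals mark the bases added at the 5′ end to the 24-nt tag.
24 nt: ggtgaacctgcggaaggatcatta
25 nt: Aggtgaacctgcggaaggatcatta
26 nt: TAggtgaacctgcggaaggatcatta
27 nt: GTAggtgaacctgcggaaggatcatta
28 nt: CGTAggtgaacctgcggaaggatcatta

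In this ladder the 24-nt tag had 2095 and 5482 reads (D and P), the 25-nt tag 8825 and 21319, and the 26-nt tag, which was the leading long small RNA of both libraries together, 10886 and 33498. The 27-nt tag had 5524 and 26333 reads and the 28-nt tag 32 and 343. The log2 ratios were 1.31, 1.19, 1.54, 2.17 and 3.34 in that order. Both libraries dropped steeply between 27 and 28 nt, the D library more so.

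**Figure D4:**
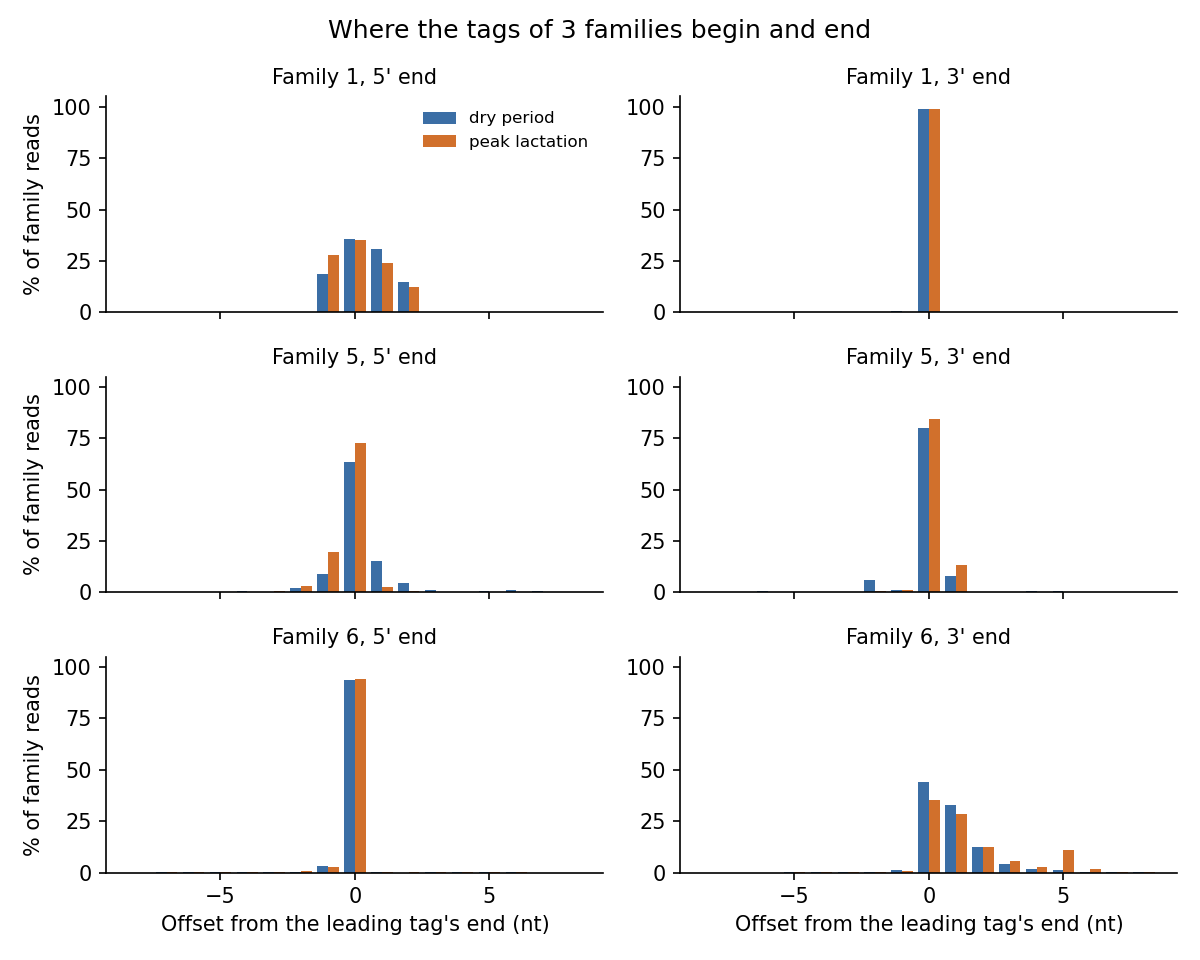
Percent of a family's long reads that begin (left) or end (right) at each offset in nt from the leading tag's own end, for 3 families, with dry period bars beside peak lactation bars. Family 1 has a single 3′ end and family 6 a single 5′ end in both libraries, and family 5 is sharp at both ends.

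Family 5 differed most between the stages. It lies at the 3′ end of 5.8S rRNA, and its leading tag, printed above with 26 nt, had 353 reads in the D library and 26286 in the P library, 23.8 and 1673 RPM. That is a log2 ratio of 6.14 (5.99 to 6.29), and the family as a whole had 1294 and 47615 reads and a log2 ratio of 5.12. Reads of 18 to 23 nt from the same stretch did not share this size of difference, with 42928 and 113261 reads and a log2 ratio of 1.32. Within the long reads the log2 ratio was 1.80 at 24 nt, 2.80 at 25 nt, 5.37 at 26 nt, 6.19 at 27 nt and 6.31 at 28 nt. Family 18, rich in GC and not assigned here, came next among the 20 with 2292 and 37482 reads and a log2 ratio of 3.95.

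The other families lay closer together. Family 7, the 5′ end of 5.8S rRNA, had 27854 and 92706 reads, a log2 ratio of 1.65, but its leading 24-nt tag 6440 and 10848 reads and only 0.67 (0.63 to 0.72). Family 3 of 28S rRNA had 34121 and 146842 reads and a log2 ratio of 2.02, family 4 of 18S rRNA 41631 and 143952 reads and 1.71. Family 13 of 28S rRNA had the lowest ratio of the 20 at 1.18. Over the 20 families the log2 ratio ran from 1.18 to 5.12 with a median of 2.02. Per clean read outside the conserved miRNAs, 8 of the 20 stayed above 1 and all 20 above 0.

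For single tags a ratio was taken where a tag had at least 50 reads over both libraries, and a tag was counted as higher or lower where its log2 ratio passed 1 or -1. At least 50 reads were found for 8984 long tags, 1.59% of the class, which had 77.2% of its reads in the D library and 81.3% in the P library. Of these, 7654 (85.2%) were higher in the P library and 79 (0.879%) lower. Over all 29345 tags of the libraries with as many reads, 59.7% were higher, 9.1% lower and 68.8% either. The median log2 ratio was 2.02 for the long tags and 1.19 for all tags. Per clean read outside the conserved miRNAs 47.2% of the long tags were higher and 3.70% lower, and with edgeR's TMM factors 46.5% and 3.88%.

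Counts by length followed the same order as the reads. At 24 nt 71.3% of the long tags with a ratio were higher, at 25 nt 82.0% and at 26 nt 90.02%. At 27 nt it was 96.1% and at 28 nt 776 of 782, against 59.7% over all tags of any length. The filter counts reads of both libraries together, and lengths scarce in the D library pass it mainly through P library reads. At 28 nt the tags that passed had 21496 and 300499 reads, so the climb is not separate from that of the reads. Of the 8984 long tags with at least 50 reads, 248 had no D library read, 51 of them among the 250 tags of 29 nt. Over all 29345 tags with as many reads it was 317. Such tags passed the filter on P library reads alone. A count of 0 here allows up to 3 reads, 0.202 RPM in the D library.

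The 5 long tags with at least 1000 reads and the largest log2 ratios were 28 to 30 nt long. They are named as above where the sequence is known. All reached 1000 reads through the P library. A choice by the largest ratio by itself favors tags with few D library reads, so their near absence from D is no separate result.
18S rRNA, family 10: caggtctgtgatgcccttagatgtccggg
not assigned, family 9: cgcgtctcggggagaaccgcaggaacgccg
28S rRNA: ctggacgcgagccgggcccttcccgtgg
28S rRNA: agggttccatgtgaacagcagttgaacat
28S rRNA, family 12: gcggcgactctggacgcgagccgggccctt

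The first of them had 4 reads in the D library and 2289 in the P library, a log2 ratio of 9.08 (7.72 to 10.44). The others had 4 and 1283 reads, 4 and 1059 reads, 15 and 3734 reads, and 20 and 2995 reads. For comparison, the 27-nt leading tag of family 10, which lies within the first of these, had 2244 and 11461 reads and a log2 ratio of 2.27.

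At the other end, 3 of the 893 long tags with at least 1000 reads were below a log2 ratio of 0 and none was below -1. The 5 lowest were 24 to 27 nt long, and those whose parent is known come from RNAs other than the 18S, 5.8S and 28S rRNAs.
not assigned: agggagagaacgtaatctgagtggt
5S rRNA: ggttagtacttggatgggagaccg
Y RNA, 3′ part: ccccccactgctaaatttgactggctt
tRNA-Val, 5′ part: gtttccgtagtgtagtggttatca
5S rRNA: gttagtacttggatgggagaccgc

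Reads of the first were 898 in the D library and 713 in the P library, a log2 ratio of -0.41 (-0.56 to -0.27). The 5S rRNA tags, from the small rRNA of the large subunit that is made from its own genes, had 553 and 459 reads and 586 and 667 reads. The Y RNA tag, from a small RNA bound by the Ro protein, had 658 and 589 reads and a log2 ratio of -0.24 (-0.40 to -0.08). The tRNA-Val tag had 1464 and 1608 reads, with an interval of -0.05 to 0.16. On the scale outside the conserved miRNAs these 5 tags and the leading tag of family 7 would all stand below 0, and the other named tags with a ratio above it.

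The 79 lower tags were poorer in GC. Their mean GC content was 46.2%, against 58.2% for the higher tags and 57.2% for all long tags with a ratio. Of the 79, 35 held 18 nt of a listed miRNA or precursor or were within 1 mismatch of a listed miRNA over the first 18 nt, and 44 were not. The same held for 78 of all 8984 long tags with a ratio (0.868%).

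Tags of 32 to 35 nt, the length of large tRNA fragments, were rare, with 658 reads in the D library and 4333 in the P library. Their most read dry period tags were looked at after the values were seen. A choice by dry period reads uses the dry period side of the ratio and by itself favors low ratios. Grouping them by their first 18 nt gave 6 groups, of which 2 were GC-rich 28S rRNA of family 12 and 4 were not. Both family 12 groups were higher in the P library with intervals above 0, while of the 4 others 2 had intervals below 0 and 2 had intervals that include 0. The leading family 12 group and the 5′ part of a Y RNA are shown, with capitals on the 18 nt that define the group, and the others are not reported by name.
28S rRNA, family 12: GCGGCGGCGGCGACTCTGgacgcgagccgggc
Y RNA, 5′ part: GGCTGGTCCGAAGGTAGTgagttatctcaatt

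The family 12 group had 53 reads of 32 to 35 nt in the D library and 1171 in the P library. The Y RNA group had 21 and 32 reads, with an interval of -0.26 to 1.31 that includes 0. Over 24 to 44 nt this group had 602 and 576 reads, a log2 ratio of -0.15 (-0.31 to 0.02). With the same start 1688 and 551 reads stood at 18 to 23 nt. Its 24-nt tag, with 309 and 111 reads and a log2 ratio of -1.56 (-1.87 to -1.25), was among the lower tags.

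The longest tags, of 42 to 44 nt, made small humps of 70 reads in the D library and 229 in the P library, almost all read once. In the dry period 24 of the 70 reads (34.3%) came within 4 mismatches of a conserved miRNA over their first 18 nt, and in the P library 6 of 229 (2.62%). Their origin was not tested. The leading tag of 36 to 44 nt was the start of family 6 extended to 37 nt, with 2 reads in the D library and 0 in the P library.

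No single base dominated the first position or the tenth. T opened 23.1% of the long reads of D and 20.02% of those of P, against 20.002% and 18.3% over all positions of the same reads. By reads G was the most frequent first base, with 30.4% and 31.4%, below its 32.4% and 33.3% over all positions. With each tag counted once it was A, with 30.02% and 27.7% against 24.003% and 25.3% for G. A stood at the tenth position in 31.2% and 31.1%, above its 26.96% and 25.1% over all positions by 4.19 and 6.03 points. With each tag counted once this excess was 0.70 and 1.29 points. Reads with both T first and A at the tenth position were 6.59% in the D library and 5.69% in the P library, and 7.46% and 6.30% when each tag was counted once. In conserved miRNA reads this pair stood in 79.1% and 59.8%, and in the other reads of 18 to 23 nt in 6.90% and 3.96%. With each tag counted once it stood in 24.5% and 21.1% of conserved miRNA tags. For the other tags of 18 to 23 nt it was 7.36% and 6.39%.

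**Figure D5:**
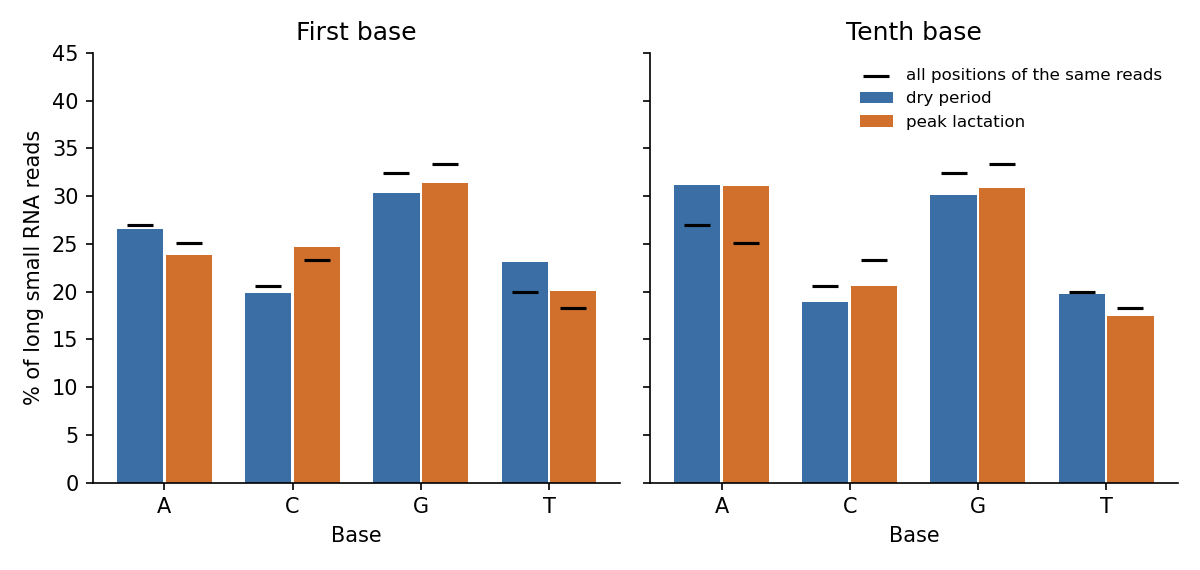
Percent of long small RNA reads with each base at the first position (left) and the tenth (right) in both libraries, with a black dash for the percent of that base over all positions of the same reads. T at the first position is 3.13 and 1.75 percentage points above its dash, and A at the tenth position 4.19 and 6.03 points above.

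Base use also varied with length. Of the reads of 29 to 31 nt, the lengths typical of mammalian PIWI-interacting RNAs, 16.5% began with T in the D library and 13.02% in the P library, and 47.6% and 38.4% began with G. T first differed from its percent over all positions of these reads by 2.56 and -1.03 points (D and P). A stood at the tenth position in 24.7% and 31.2% of them, 6.99 and 11.49 points above its percent over all positions. With each tag counted once this excess of A was 1.25 and 3.04 points, and G began 29.3% and 26.97% of the tags. By reads, T at the tenth position was also above its percent over all positions, by 7.03 and 3.76 points. At these lengths 2.39% and 2.62% had both T first and A at the tenth position. Among reads of 32 to 35 nt the libraries differed, with T first in 38.3% of the D library reads and 10.2% of the P library reads. G came first in 34.0% and 65.5% of these reads. With each tag counted once the libraries differed less, with T first in 30.5% and 19.5% and G first in 29.05% and 34.5%. By first base over the whole class, the log2 ratio was 2.13 for C, 1.87 for G, 1.66 for A and 1.61 for T.

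The class was rich in GC compared with miRNAs. Mean GC content of the long reads was 53.0% in the D library and 56.6% in the P library, or 50.1% and 53.9% over tags counted once. Conserved miRNA reads had 38.1% and 39.4%, and the other reads of 18 to 23 nt 54.0% and 56.8%, close to the long reads. Reads of 29 to 31 nt had 68.3% and 66.2%.

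The ratio between the stages climbed with GC content. It was 1.26 on the log2 scale for long reads below 40% GC, 1.54 from 40 to 50%, 1.72 from 50 to 60%, 2.13 from 60 to 70% and 2.59 from 70% on. The order held within each length from 24 to 27 nt, with 0.88 and 2.00 in the lowest and highest bins at 24 nt and 1.84 and 2.93 at 27 nt. At 28 nt it did not, with 3.20 in the lowest bin, 3.81 from 60 to 70% and 3.36 in the highest. GC content, length and the stage moved together, and their parts in the difference were not tested.

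Reads were concentrated in a small share of the tags, but less so than for miRNAs. The leading tag took 0.901% of the long reads in the D library and 0.744% in the P library, the leading 10 took 5.95% and 5.36%, and the leading 100 took 23.4% and 20.7%. The leading 10 conserved miRNA tags, for comparison, took 63.2% and 53.3% of the conserved miRNA reads. To reach 50% of the long reads took 699 tags in the D library and 789 in the P library, and 90% took 82068 and 43998. Of the 100 leading tags of each library, 70 were the same. The 10 tags of highest mean RPM all belonged to 5 families, with log2 ratios from 1.19 to 6.14. The leading tag of 29 to 31 nt, gcggcggcgactctggacgcgagccgggc of family 12, was read 643 and 5657 times, a log2 ratio of 3.06 (2.94 to 3.17). Merging tags by their first 18 nt gave the leading 100 groups 38.5% and 39.0%.

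The long small RNAs had sequence in common with the other read classes. Their first 18 nt also began tags of 18 to 23 nt for 90.2% of the long reads in the D library and 95.1% in the P library. Of the other reads of 18 to 23 nt, 23.1% and 30.8% held an 18-nt stretch of the 20 leading tags. The tail filter removed reads of these families as well, since 18.9% and 11.8% of the tail-bearing reads held such a stretch. The long reads with 18 nt of a listed conserved miRNA at any place were 0.918% and 0.232%, and those with 18 nt of a candidate miRNA of the study 0.201% and 0.189%.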

How the data were processed

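Small RNA of goat mammary gland was measured in 1 library per stage. The authors removed adaptors, low-quality reads and reads below 18 nt from Solexa reads and deposited each clean tag with its length and its raw read count, which was not normalized. Members were tags of 24 to 44 nt that did not end in the tRNA tail and did not share the first 18 nt with a listed conserved miRNA. The members, the lists and the families were chosen with earlier results of these data known. Values are counts, percents, RPM (reads per 1000000 clean reads) and log2 ratios of peak lactation over dry period per clean read, with 95% Wilson intervals. No test was made, as each stage has 1 library of 3 pooled goats. Tags needed 50 reads over both libraries for a ratio. Named tags were the 10 with the highest mean RPM, the leading tag of each of 5 length classes, the leaders of the first 10 families, and the 5 largest log2 ratios in each direction among tags of at least 1000 reads. Greedy families shared an 18-nt stretch with the leading tag. The stretches and the groups of 32 to 35 nt were chosen after the values were seen. Python 3.11.15 with pandas 2.3.3, numpy 2.4.6, scipy 1.17.1 and matplotlib 3.10.9 was used, and scaling factors came from edgeR 4.0.16 (TMM) and DESeq2 1.42.0, with no test run in either. The ratio and its interval were tested on simulated counts for 29345 tags, where 94.8% of the intervals held the true value. Those counts held counting error only, as the interval assumes, so this checks the calculation and not the spread between libraries. Some named tags are not reported here.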

Additional observations from a re-analysis of the deposited data

How the results depend on the processing

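Each stage had 1 library, so no library could be left out, and the depth of 14851375 and 15712891 clean reads limits only counting error. No paired analysis was possible because each stage had 1 sample. Of the 43 alternatives, 37 moved a result past its limit and 6 moved it by less. A reversal was looked for only in the log2 ratio of the long small RNA share, and none was found. The log2 ratio of the long small RNA share, 1.82, was 0.68 outside the conserved miRNAs, 0.56 with each tag counted once, 1.82 without tags holding the start of a listed miRNA at any place, 1.85 with tail-bearing tags kept, 1.89 and 1.90 with at least 2 and 5 reads a tag, and 2.40 at 26 to 44 nt. In alternatives chosen after the data were seen it was 1.82 without tags within 1 mismatch of a listed miRNA and 1.74 without the 20 families.

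The percent of long reads at 26 to 44 nt (34.7 in the dry period, 51.8 at peak lactation) was 36.9 and 52.8 by tags, 34.3 and 53.1 without the 100 leading tags, and 34.8 and 51.9 without tags holding the start of a listed miRNA. T first with A at the tenth position was 7.46 and 6.30 percent by tags and 6.36 and 5.43 without the 100 leading tags. Mean GC content was 50.1 and 53.9 percent by tags and 52.9 and 57.2 without the 100 leading tags. The 100 leading groups merged by the first 18 nt held 38.5 and 39.0 percent, and families by a 22-nt stretch held 35.5 and 37.2 percent.

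Counts of long tags higher and lower at peak lactation, 7654 and 79, were 21433 and 562 from at least 10 reads, 3004 and 10 from at least 200, 4241 and 332 outside the conserved miRNAs, 4177 and 349 with TMM factors and 4130 and 362 with DESeq2 size factors. The first pair comes from more tags tested (26240) and the second from fewer (3465), and the last 3 from a shift of every log2 ratio by -1.14, -1.16 and -1.18.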
